A study of Mus musculus with 6 samples.

Results

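The forkhead genes of the mouse other than Foxe1 were followed in thyroid lobes that had lost Foxe1. All genes whose symbol is Fox, a letter and a number, with or without a final letter, were taken, leaving out Foxe1 itself and the unrelated Foxred genes. These were 38 of the 19505 genes with a symbol on the array, in 17 classes named by letter. The RefSeq gene table holds 43 symbols of this form, and the remaining 5 were not analysed here. Each of the 38 had 1 probe set, so no choice between probe sets was needed.

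Forkhead proteins share a winged-helix domain that binds DNA at sequences close to TGTTTAC, and several can occupy the same sites. The family divides the body between its classes: FoxA factors open chromatin in gut-derived epithelium, FoxC and FoxF factors act in mesenchyme and vessels, FoxO factors answer to insulin and stress, and FoxN1 directs the epithelium of thymus and hair. Foxe1 is the member of the thyroid follicular cell, where it binds the promoters of hormone synthesis genes, and its loss raises the question of whether a relative rises in its place.

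Both groups were mice of C57BL/6J background that carried Cre and received tamoxifen, 0.05 g/kg by intraperitoneal injection on each of 5 days, at 6 to 8 weeks of age. The knockouts were Foxe1flox/flox/Cre, with both copies of Foxe1 flanked by loxP sites, and the controls carried Cre alone. The promoter that drives Cre and the sex of the animals were not given in the sources used here. RNA of 1 thyroid lobe per mouse, taken 2 weeks after treatment, was hybridised to 1 Affymetrix whole-transcript array, with 3 mice in each group.

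Values are log2 RMA signals, so a difference of 1 is a 2-fold difference, and the signal of one probe set cannot be ranked against that of another. The arrays had medians between 5.62 and 5.69 and correlated with each other at 0.97 to 0.99, and their number limits the precision of every value here. Thyroglobulin, which defines the follicular cell, read 18.67 to 19.27 on the 6 arrays, near the top of the scale. Parathyroid tissue came with some lobes, since Pth read between 3.56 and 19.68. Y-linked genes were near background in control 1 and knockout 3 (means of 3.04 and 2.65, against 8.03 to 8.30 on the other 4 arrays), so the groups were alike in that respect. In whole lobes, fewer cells of a type and less RNA per cell cannot be told apart.

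Foxe1 itself checks the labels. It read 7.60, 7.19 and 7.04 in control lobes and 3.33, 2.88 and 3.04 in knockout lobes. It fell by 4.19 on the log2 scale (SE 0.22, limma adjusted p = 0.000442). Its 3 knockout values lay below the lower quartile of their arrays, in the range of background signal, so the fall is a lower limit. None of its 38 relatives differed by anything near that size. Their differences ran from -1.07 for Foxa1 to 0.93 for Foxn1.

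**Figure D1:**
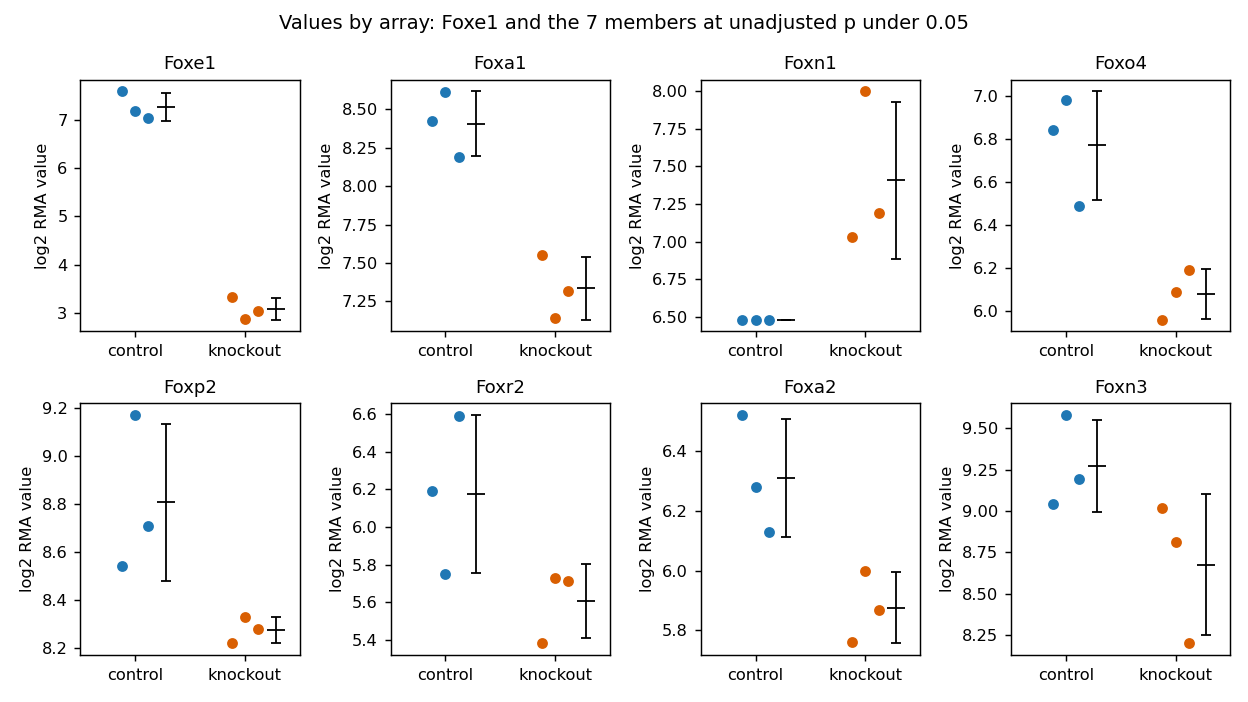
Log2 RMA value on each array for Foxe1 and for the 7 other forkhead genes with an unadjusted limma p under 0.05; points are arrays, the bar and whiskers beside them the mean and SD of 3 arrays, and each panel has its own axis. Foxa1 lies lower on all knockout arrays by a gap of 0.64, Foxn1 higher by a gap of 0.55, and the gaps of Foxr2 and Foxn3 are 0.02 each.

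No forkhead gene passed the threshold. With limma and Benjamini-Hochberg adjustment over all 22206 probe sets, 0 of 38 had an adjusted p under 0.05, against a background of 0.338% of all probe sets and 0.0856% for lower values alone. The smallest adjusted p was 0.0737, for Foxa1. At an unadjusted p under 0.05 there were 7 of 38, or 18.4%, where 12.7% of all probe sets reached it. Of the 7, 6 were lower in the knockout (Foxa1, Foxo4, Foxp2, Foxr2, Foxa2 and Foxn3) and 1 was higher (Foxn1), beside background shares of 6.13% lower and 6.61% higher. An ordinary t statistic gave 6 of 38 at an unadjusted p under 0.05, beside 9.94% of all probe sets. After adjustment it called 0 of the 22206 probe sets, so its 0 for the family tells nothing about these genes.

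The family as a whole was centred on no difference. Its median difference was -0.01, beside -0.02 over all probe sets, with 18 genes above 0 and 20 below, which is 47.4% above 0 and 52.6% below where all probe sets gave 46.8% and 53.2%. Knockout and control arrays did not overlap for 10 of the 38 (26.3%, background 18.1%), 4 with the knockouts above (background 9.28%) and 6 with the knockouts below (background 8.78%). The 4 above were Foxn1, Foxo1, Foxo6 and Foxd2, of which the last 3 were separated by gaps of 0.02, 0.02 and 0.05. Without knockout 2 the count at an unadjusted p under 0.05 was 3 of 38 (11.8% of all probe sets), and without knockout 3 it was 4 of 38 (9.88% of all probe sets), so neither stood clear of the background. Without control 1 it was 7, and leaving out control 2, control 3 or knockout 1 gave 6, 6 and 5, beside 11.2% to 12.7% of all probe sets in these 4 settings.

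The intervals say how large a rise these arrays leave room for. For 34 of the 38 genes the upper limit of the 95% interval, taken gene by gene, lay under 1, a rise of 2-fold. That is 89.5% of them, beside 89.2% of all probe sets, so it describes the precision of the arrays and nothing particular to the family. The 4 others were Foxf1 (upper limit 1.60), Foxn1 (1.52), Foxq1 (1.30) and Foxs1 (1.29). The limits hold for the probe set value.

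**Figure D2:**
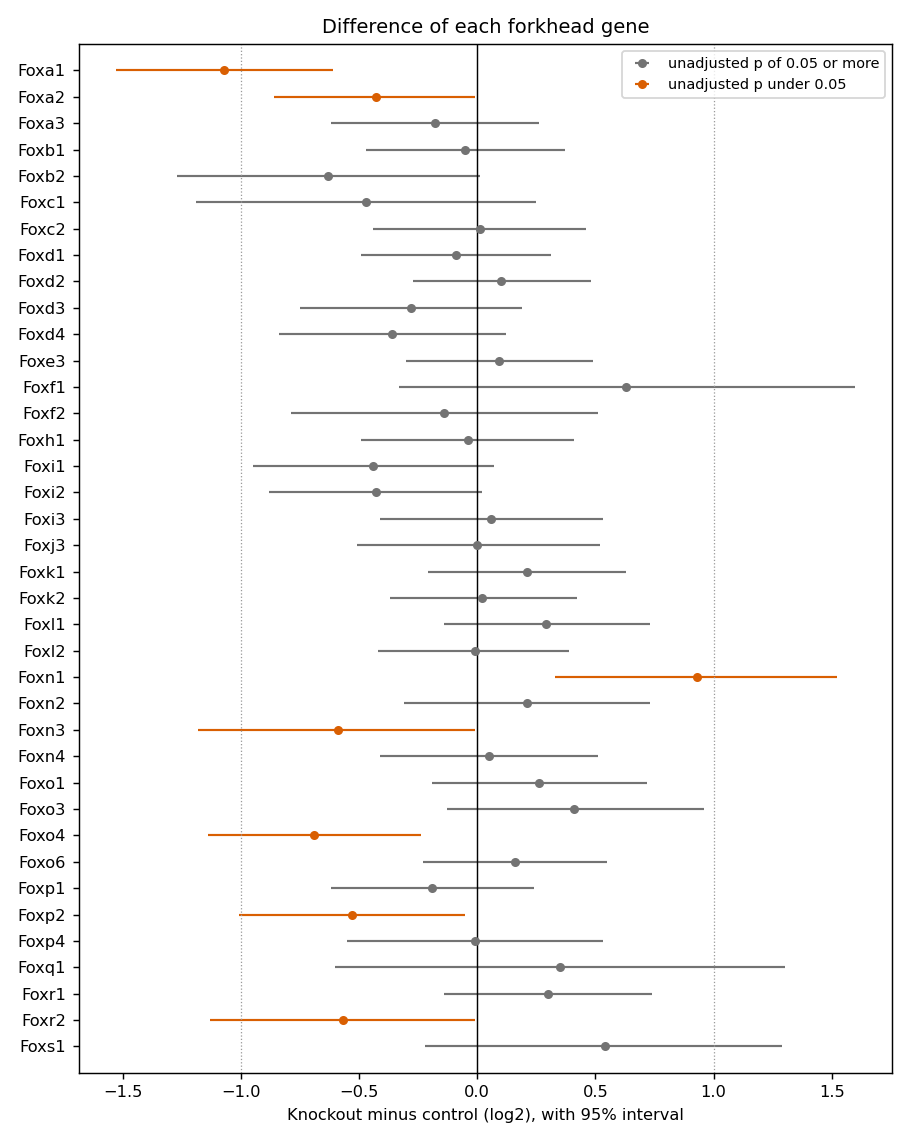
Difference between the means of 3 knockout and 3 control arrays for each of the 38 forkhead genes (log2, knockout minus control), ordered by class letter; whiskers are limma's 95% interval for each gene, dotted lines mark a 2-fold change. The intervals of 7 genes, in orange, leave out 0, 6 of them below 0 and Foxn1 above, and those of 34 genes end below 1 on the upper side.

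The genes of the E, D and B classes, taken here as relatives of Foxe1 by class letter only, gave little signal. Their differences ran from -0.63 to 0.10. Foxe3, the other gene of the E class and a factor of the lens, read 2.20, 2.18 and 2.08 in control lobes and 2.16, 2.21 and 2.37 in knockout lobes. These values stood at or below the 0.5th percentile of every array, so the groups overlapped at the bottom of the scale (difference 0.09, 95% interval -0.30 to 0.49, adjusted p = 0.879). Of the D class, Foxd2, which lies next to Foxe3 in the RefSeq gene order, read 2.94 to 2.96 in control lobes and 3.01 to 3.11 in knockout lobes (difference 0.10). Foxd1, a stromal factor of the kidney, differed by -0.09, Foxd3, a neural crest factor, by -0.28 and Foxd4 by -0.36, with adjusted p of 0.534 or more for the 4. The brain factors of the B class were Foxb1, at -0.05, and Foxb2.

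Foxb2 had the largest difference of these classes. It read 4.69, 3.86 and 4.88 in control lobes and 3.97, 3.98 and 3.59 in knockout lobes. The means differed by -0.63 (SE 0.28, adjusted p = 0.401). Control 2 lay among the knockouts, and the difference was -0.94 without it and -0.43 without control 3. In all, 9 of the 38 genes were below the lower quartile of the array on all 6 arrays: Foxe3, Foxd2, Foxd4, Foxb1, Foxc2, Foxh1, Foxi2, Foxi3 and Foxl2. Values so low lie in the range of background signal.

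The A class held the member nearest to the threshold, and all 3 of its genes had negative differences. Foxa1 (Entrez Gene 15375), a pioneer factor that opens chromatin in the epithelium of airway, prostate and breast, read 8.42, 8.61 and 8.19 in control lobes and 7.55, 7.14 and 7.32 in knockout lobes. The lowest control was 0.64 above the highest knockout. The means were 8.41 ± 0.21 and 7.34 ± 0.21 (SD, n = 3 each), a difference of -1.07 (SE 0.20, 95% interval -1.53 to -0.61), or 2.10-fold. The limma p was 0.000534 before adjustment and 0.0737 after it, so Foxa1 was not called. Under the 18 other settings tried its difference stayed between -1.18 and -0.97, and its adjusted p between 0.0602 and 0.367.

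Foxa2 (Entrez Gene 15376), which acts with Foxa1 in lung and liver, read 6.52, 6.28 and 6.13 in control lobes and 5.76, 6.00 and 5.87 in knockout lobes. Its groups were separated by 0.13. The difference was -0.43 (SE 0.19, adjusted p = 0.386), and it was -0.33 without control 1 and -0.52 without control 3. Foxa3, the member best known from liver, read 4.63 to 4.80 in control lobes and 4.25 to 4.71 in knockout lobes, with overlap (difference -0.18, adjusted p = 0.769).

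The stretches before the starts of Foxa1 and Foxa2 are shown because these were the members of the A class with separated groups. Each is the 250 bases upstream of a RefSeq transcription start (GRCm38.p6), written 5′ to 3′ on the gene's own strand, with matches to the forkhead motifs TGTTTAC and TGTTTGC and to their shared core TGTTT, on either strand, in capitals.
Foxa1, chr12:57546112-57546361, minus strand: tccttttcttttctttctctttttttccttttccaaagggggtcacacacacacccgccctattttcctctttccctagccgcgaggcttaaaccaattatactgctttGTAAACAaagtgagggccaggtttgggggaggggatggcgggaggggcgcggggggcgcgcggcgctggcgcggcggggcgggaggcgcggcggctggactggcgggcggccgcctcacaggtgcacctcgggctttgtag
Foxa2, chr2:148046970-148047219, minus strand: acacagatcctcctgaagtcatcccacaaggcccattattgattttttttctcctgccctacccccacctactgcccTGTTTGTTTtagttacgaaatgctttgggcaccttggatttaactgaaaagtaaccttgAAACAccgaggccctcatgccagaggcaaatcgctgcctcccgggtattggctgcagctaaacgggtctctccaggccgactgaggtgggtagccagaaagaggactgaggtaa
The Foxa1 window holds GTAAACA, the reverse complement of TGTTTAC, with its core AAACA beginning 139 bases before the start. The Foxa2 window, the farthest upstream of 3 in the table, holds 3 copies of the core and neither longer motif, and the other windows of Foxa2 hold 1 copy and 0 copies. A TGTTTAC match occurs in 3.17% of the 32851 RefSeq windows of this length and the core in 46.4%, so the core alone tells little. Of the 38 genes 26 had a window in the table, 30 windows in all, and 3 windows held TGTTTAC or TGTTTGC (10%, against 7.29% of all windows): those of Foxa1, Foxj3 and 1 of 3 windows of Foxp1. Foxj3 and Foxp1 differed by 0.00 and -0.19, with overlapping groups. A match is a description of letters and not a binding site.

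Airway epithelium, where Foxa1 and Foxa2 are active, was present in the lobes and its genes also read lower in the knockout. The airway secretory list, of 10 genes all measured, had mean log2 values of 16.06, 15.55 and 15.57 in control lobes. They were 14.89, 14.95 and 14.95 in knockout lobes, with no overlap. Among the knockouts Foxa1 was highest in knockout 1, where this list was lowest. Of its 10 genes 8 had negative differences (53.2% of all probe sets did), with a median of -1.08 over the list. At an unadjusted p under 0.05, 6 were lower, beside 6.13% of all probe sets, and 0 passed the adjusted threshold. Bpifb1 differed by -1.32 (adjusted p = 0.0722), Muc5b by -1.48 and Reg3g by -1.39, all airway secretory products. Bulk values do not separate Foxa1 per airway cell from the amount of airway tissue, and the part of that tissue in the Foxa1 difference was not tested.

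Ciliated cell genes showed the same order of groups, and control 1 was the highest control in both lists. Of 22 listed genes 21 were measured and 19 had negative differences (median -0.63), where 53.2% of all probe sets did. At an unadjusted p under 0.05, 6 were lower and 1 was higher, beside 6.13% and 6.61% of all probe sets. Groups did not overlap for 6 of the 21, beside 18.1% of all probe sets. Their mean log2 value was 6.81, 5.94 and 5.90 in control lobes and 5.75, 5.71 and 5.67 in knockout lobes, so control 1 stood apart. Foxa1 was highest in control 2, which had the lowest airway value of the controls. The Foxa1 difference was -1.06 without control 1. The part of ciliated cells in the Foxa1 difference was not tested. By limma 2 of the 21 genes were called, beside 0.338% of all probe sets. The dynein gene Dnai1 fell by 1.21 (adjusted p = 0.0445), and Dnah11, also a dynein gene, rose by 2.44 (adjusted p = 0.0324). Thyroid C cell markers, with 3 of 5 measured, all had negative differences too (5.04 to 5.72 in the controls, 4.63 to 4.98 in knockout lobes), and 0 of 3 reached an unadjusted p under 0.05.

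**Figure D3:**
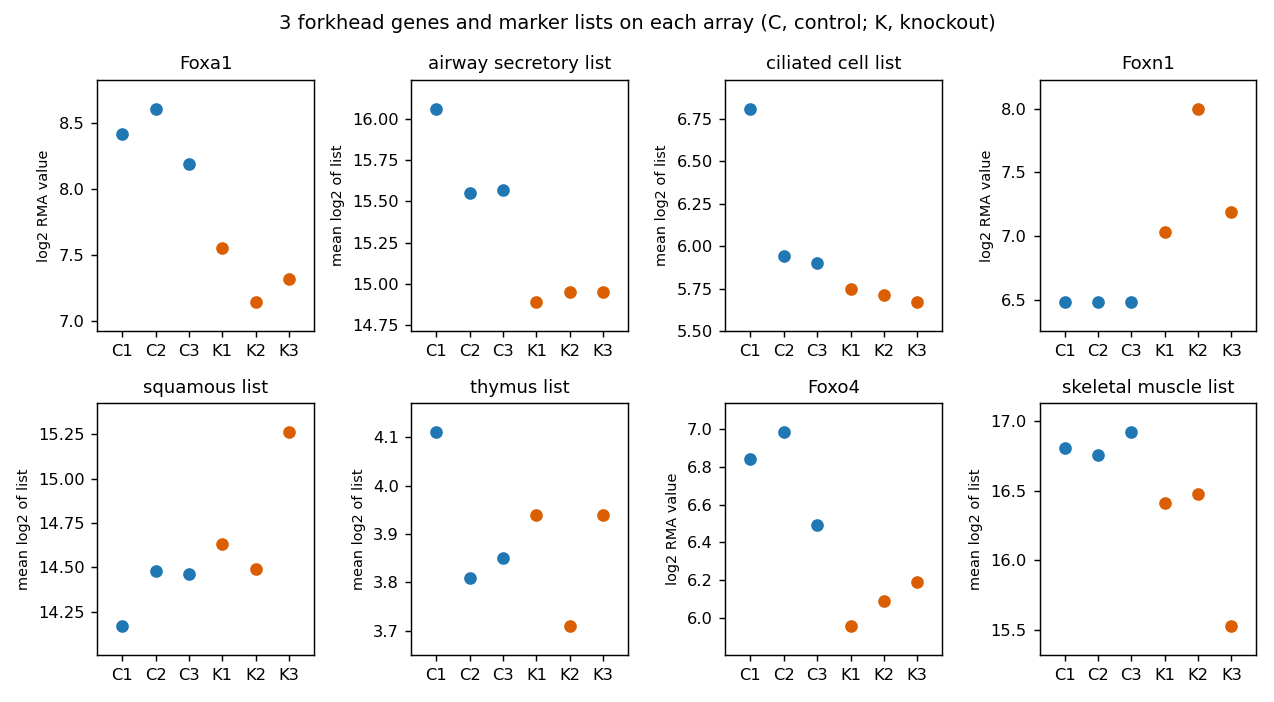
Log2 RMA value of Foxa1, Foxn1 and Foxo4 and the mean log2 value of 5 marker lists on each array (C, control; K, knockout); each panel has its own axis. Foxa1, Foxo4 and the airway secretory, ciliated cell and muscle lists are each lower on all knockout arrays. Foxn1 and the squamous list are each higher on all of them, and the thymus list overlaps. Within the knockouts the orders differ. Foxa1 is highest on K1, where the airway list is lowest. Foxn1 is highest on K2, where the squamous and thymus lists are lowest, and Foxo4 is highest on K3, where the muscle list is lowest. The part of these tissues in the gene differences was not tested.

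The N class held the one forkhead gene with an unadjusted p under 0.05 and a higher value in the knockout. Foxn1 (Entrez Gene 15218), the gene lost in nude mice and needed for thymus epithelium and hair, read 6.48 on all 3 control arrays and 7.03, 8.00 and 7.19 in knockout lobes. Every knockout lay at least 0.55 above the controls. The knockout mean was 7.41 ± 0.52 (SD, n = 3), and the difference was 0.93 (SE 0.26, 95% interval 0.33 to 1.52, unadjusted p = 0.00664, adjusted p = 0.182). Knockout 2 was the highest, and without it the difference was 0.63, whereas it was 1.11 without knockout 1. The 3 controls agree to 2 decimals, and limma pools their spread with that of the knockouts and draws on the other probe sets. The SE thus also reflects that agreement, and the ordinary t statistic gave an unadjusted p of 0.0367.

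The window before the Foxn1 start is shown as that of the single member higher in the knockout at an unadjusted p under 0.05.
Foxn1, chr11:78386609-78386858, minus strand: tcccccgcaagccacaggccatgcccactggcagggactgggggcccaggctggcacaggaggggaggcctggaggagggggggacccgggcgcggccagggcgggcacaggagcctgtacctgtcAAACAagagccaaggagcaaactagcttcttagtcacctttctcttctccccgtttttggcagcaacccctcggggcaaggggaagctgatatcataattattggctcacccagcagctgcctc
It holds 1 copy of the core, as AAACA, and neither TGTTTAC nor TGTTTGC.

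Thymus and squamous epithelium both express Foxn1. Of 12 thymus genes 11 were measured, 3 of them below the lower quartile on all arrays. Their mean log2 value was 3.81 to 4.11 in control lobes and 3.71 to 3.94 in knockout lobes, with 4 positive and 7 negative differences. Of the 11, 0 had an unadjusted p under 0.05, beside 12.7% of all probe sets. Squamous and basal epithelium genes, all 11 measured, lay at 14.17 to 14.48 in control lobes and 14.49 to 15.26 in knockout lobes. Of the 11, 9 had positive differences. At an unadjusted p under 0.05, 4 of these were higher, beside 6.61% of all probe sets. These 4 were led by the cornified envelope genes Sprr1b (3.13, adjusted p = 0.0624) and Sprr3 (1.15, adjusted p = 0.0907). Krt17, a basal keratin, lay lower, at -1.89 (adjusted p = 0.113). Foxn1 and the squamous mean were both higher on all knockout arrays. Within the knockouts, knockout 2 had the highest Foxn1 and the lowest squamous mean. The part of squamous tissue in the Foxn1 difference was not tested.

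Among the other N class genes Foxn3 lay lower, and Foxn2 and Foxn4 had small positive differences. Foxn3 (Entrez Gene 71375), a repressor linked to the cell cycle checkpoint, read 9.04, 9.58 and 9.19 in control lobes and 9.02, 8.81 and 8.20 in knockout lobes. The groups missed each other by only 0.02 (difference -0.59, SE 0.26, adjusted p = 0.387). Knockout 3 was the lowest, and without it the difference was -0.35, whereas it was -0.77 without knockout 1. Foxn2 read 10.35 to 10.74 and 10.32 to 10.94 (difference 0.21), and Foxn4, a factor of retina and spinal cord, differed by 0.05.

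Of the O class, 3 genes had positive differences and Foxo4 a negative one. FoxO proteins enter the nucleus when insulin signalling is low and switch on genes of stress resistance, atrophy and cell cycle arrest. Foxo4 (Entrez Gene 54601) read 6.84, 6.98 and 6.49 in control lobes and 5.96, 6.09 and 6.19 in knockout lobes. The lowest control was 0.30 above the highest knockout, and the difference was -0.69 (SE 0.20, 95% interval -1.14 to -0.24, unadjusted p = 0.00713, adjusted p = 0.185). Leaving out each array in turn moved it between -0.83 and -0.58.

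Foxo1 and Foxo3, the best studied genes of the class, had positive differences whose intervals included 0. Foxo1 was 8.47, 8.55 and 8.01 in control lobes and 8.57, 8.60 and 8.65 in knockout lobes, where control 3 was low and the other controls were just below the knockouts (difference 0.26, 95% interval -0.19 to 0.72, adjusted p = 0.652). The difference was 0.10 without control 3 and 0.37 without control 2. Foxo3 was 6.67, 7.51 and 7.18 against 7.58, 7.38 and 7.64, with control 2 inside the knockout range (difference 0.41, 95% interval -0.13 to 0.96, adjusted p = 0.525). Its difference was 0.19 without control 1 and 0.61 without control 2. Foxo6 read 3.34 to 3.38 and 3.40 to 3.62 (difference 0.16).

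Genes of skeletal muscle, a tissue rich in FoxO activity, read lower in the knockout lobes, and none was called. All 15 muscle genes had negative differences, where 53.2% of all probe sets did, and 0 passed the adjusted threshold by limma. At an unadjusted p under 0.05, 5 were lower, beside 6.13% of all probe sets in that direction. The list means were 16.76 to 16.92 in control lobes and 16.41, 16.48 and 15.53 in knockout lobes. Foxo4 and the muscle list were both lower on all knockout arrays. Within the knockouts, knockout 3 had the lowest muscle value and the highest Foxo4. The part of muscle in the Foxo4 difference was not tested.

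The known FoxO target genes did not move as one. All 25 on the list were measured, 7 with positive and 18 with negative differences (median -0.25), where 53.2% of all probe sets were negative. By limma 0 passed the adjusted threshold. Sesn3, a sestrin that restrains growth signalling, differed by 1.04 (adjusted p = 0.098), the repressor Bcl6 by -1.06 (adjusted p = 0.183) and the insulin receptor Insr by -0.41 (adjusted p = 0.389). At an unadjusted p under 0.05 there were 4 of the 25, beside 12.7% of all probe sets. Of these 1 was higher and 3 were lower, beside background shares of 6.61% and 6.13%. Knockout 3 had the lowest list mean, 9.86, where the other 5 arrays lay at 10.27 to 10.44.

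Genes that control FoxO proteins were likewise not called. Of 22 measured kinases, 14-3-3 proteins and partners, 15 had positive and 7 negative differences (46.8% of all probe sets were positive), with list means of 11.42 to 11.55 in control lobes and 11.65 to 11.76 in knockout lobes. By limma 0 passed the adjusted threshold, and 3 of the 22 had an unadjusted p under 0.05. All 3 were higher, beside 6.61% of all probe sets higher at that p and 12.7% in either direction. Groups did not overlap for 7 of the 22, beside 18.1% of all probe sets. The deubiquitinase Usp7, which acts on FoxO4 among others, differed by 0.98 (adjusted p = 0.136), the epithelial 14-3-3 protein gene Sfn by 1.18 (adjusted p = 0.15) and Ywhaz by 0.47 (adjusted p = 0.373).

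Of the P class, Foxp2 lay lower in the knockout and the other members overlapped. FoxP proteins are repressors that pair with each other, in lung epithelium, heart, brain and lymphocytes. Foxp2 (Entrez Gene 114142) read 8.54, 9.17 and 8.71 in control lobes and 8.22, 8.33 and 8.28 in knockout lobes. The knockouts were close together and all lay below the controls, by 0.21 at the nearest (difference -0.53, SE 0.21, adjusted p = 0.334). Control 2 was the highest, and without it the difference was -0.35, whereas it was -0.66 without control 1. Foxp1 read 12.66, 12.94 and 12.61 against 12.55, 12.69 and 12.40, with overlap (difference -0.19, 95% interval -0.62 to 0.24), and Foxp4 differed by -0.01 (95% interval -0.55 to 0.53). Of 10 T cell and regulatory T cell genes, 5 had positive and 5 negative differences. An unadjusted p under 0.05 was reached by 0 of the 10, beside 12.7% of all probe sets.

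The K class and Foxj3 had small differences. Foxk1, a factor of glycolysis and autophagy control, read 10.72, 10.55 and 10.59 in control lobes and 10.69, 10.76 and 11.05 in knockout lobes (difference 0.21, 95% interval -0.21 to 0.63). Foxk2 read 10.53, 10.29 and 10.37 against 10.39, 10.36 and 10.51 (difference 0.02, 95% interval -0.37 to 0.42). Foxj3 read 7.00 to 7.74 and 7.20 to 7.41 (difference 0.00, 95% interval -0.51 to 0.52). For these 3 the groups overlapped and the intervals left out a 2-fold change in either direction.

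Factors of mesenchyme and vessels came next, and several rested on single arrays. Foxf1, which acts in the mesenchyme around gut and lung and in endothelium, read 3.86, 5.01 and 5.72 in control lobes and 5.87, 5.42 and 5.20 in knockout lobes. Control 1 was far below the rest, and the difference of 0.63 (SE 0.42, adjusted p = 0.594) was 0.13 without it and 1.06 without control 3. Foxs1, a gene of pericytes, read 2.41, 2.63 and 3.26 against 3.98, 3.01 and 2.92 (difference 0.54, adjusted p = 0.556). Its difference was 0.20 without knockout 1 and 0.78 without control 3. Both differences shrank by more than 0.3 without 1 array.

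Foxc1, of vessel and eye mesenchyme, read 6.05 to 7.11 in control lobes and 5.93 to 6.56 in knockout lobes (difference -0.47, adjusted p = 0.596). Foxq1, a factor of hair and stomach epithelium, was 6.03 to 6.60 in control lobes and 6.07, 6.03 and 7.66 in knockout lobes, where knockout 3 alone was high (difference 0.35). Foxc2, Foxf2, Foxl1 and Foxl2 differed by 0.01, -0.14, 0.29 and -0.01. None of these 8 had separated groups.

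The tissue lists beside these genes were uneven as well. Fibroblast genes had 12 of 13 negative differences (10.91 to 11.84 in the controls, 10.07 to 11.55 in knockout lobes), with knockout 3 the lowest. Endothelial genes had 6 positive and 9 negative (8.48 to 8.69 and 7.89 to 9.08), led by Cldn5 at -1.04 (adjusted p = 0.0609) and Flt1 at 1.06 (adjusted p = 0.178), and mural cell genes had 3 positive and 5 negative (9.23 to 9.95 and 8.78 to 9.75). Their part in the differences of Foxf1, Foxs1 and Foxc1 was not tested.

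Some members are neighbours in the RefSeq gene order. Foxq1, Foxf2 and Foxc1 lie with at most 1 protein-coding gene between any pair, and they differed by 0.35, -0.14 and -0.47. Foxf1, Foxc2 and Foxl1 lie with at most 2 such genes between any pair, with differences of 0.63, 0.01 and 0.29. All 6 had adjusted p of 0.584 or more.

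The remaining classes serve ionocytes, the early embryo and germ cells. Foxi1, the factor of ionocytes and acid-secreting cells, read 4.13, 4.29 and 4.33 in control lobes and 4.20, 3.45 and 3.79 in knockout lobes, with knockout 1 inside the control range (difference -0.44, adjusted p = 0.47). It was -0.63 without knockout 1 and -0.26 without knockout 2. All 8 ionocyte genes were measured, 6 with negative and 2 with positive differences, where 53.2% of all probe sets were negative. Their mean was 5.77 to 6.32 in control lobes and 5.41 to 5.60 in knockout lobes. At an unadjusted p under 0.05, 2 were lower, beside 6.13% of all probe sets, and 0 passed the adjusted threshold by limma. Atp6v0d2, a proton pump subunit with the smallest p of the list, differed by -1.80 (limma adjusted p = 0.0709).

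Foxi2 differed by -0.43 and Foxi3 by 0.06, both at the bottom of the arrays. Foxr2 (Entrez Gene 436240), little expressed in normal adult tissue, read 6.19, 5.75 and 6.59 in control lobes and 5.38, 5.73 and 5.71 in knockout lobes. Control 2 was 0.02 above the highest knockout (difference -0.57, SE 0.25, adjusted p = 0.381). The difference was -0.36 without control 3 and -0.78 without control 2. Foxr1 differed by 0.30 and Foxh1, the partner of Smad proteins in Nodal signalling, by -0.04.

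The 7 genes lay in the brighter part of the array. All 7 genes with an unadjusted p under 0.05 were among the 17 whose mean lay above the median of all probe sets, where 19.1% of all probe sets reached that p. Of the 12 genes with a mean up to the lower quartile 0 did, beside 3.01% of all probe sets there, and of the 9 in between 0, beside 9.82%. Groups without overlap were 8 of the 17 bright members (24.5% of all probe sets there), 2 of the 12 dim ones (10.2%) and 0 of the 9 in between (13%).

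**Figure D4:**
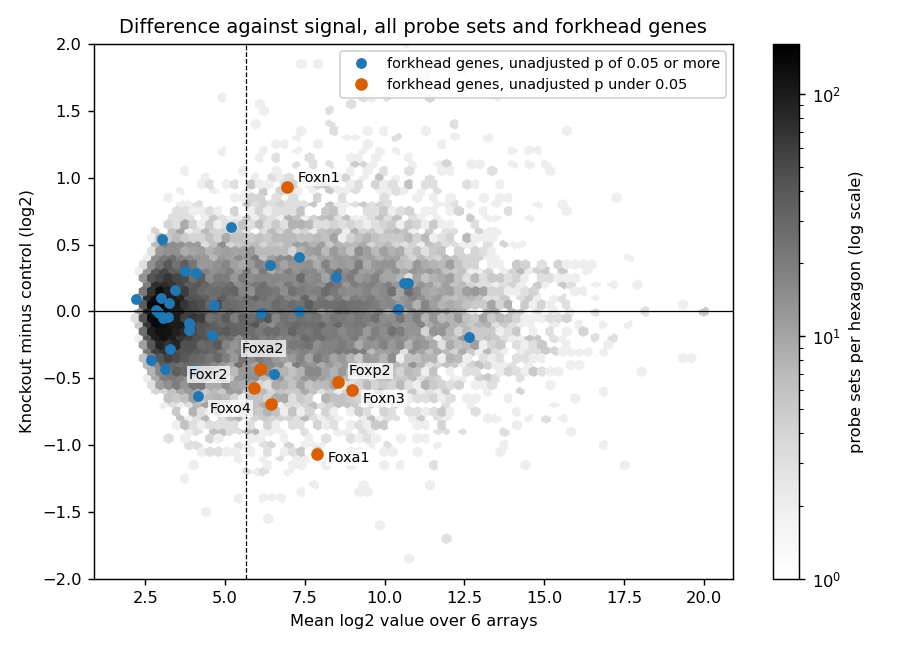
Difference (log2, knockout minus control) against the mean log2 value over 6 arrays for all probe sets, as grey hexagons shaded by number on a log scale, with the 38 forkhead genes as points; the dashed line is the median of all probe sets, and probe sets beyond 2 on either side lie outside the axis. The 7 genes with an unadjusted p under 0.05, named, lie to the right of the dashed line, and the points to the left of it lie between -0.63 and 0.63.

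Cell division genes stand close to the forkhead family through Foxm1, which was not analysed here. Of 18 measured mitotic genes known as Foxm1 targets, 11 had positive and 7 negative differences, and 0 passed the adjusted threshold by limma. At an unadjusted p under 0.05 there were 3 of 18, beside 12.7% of all probe sets: Cdc25b (-0.75), Ube2c (0.78) and Bub1b (0.83). The follicular cell list had 9 of 10 measured genes with positive differences, where 46.8% of all probe sets were positive. Its means were 7.66 to 9.14 in control lobes and 9.69 to 10.15 in knockout lobes. Thyroglobulin, 1 of the 9, differed by only 0.04, with overlap. Hhex, a homeobox factor of the follicular cell, rose by 2.46 (limma adjusted p = 0.0273). It was the 1 gene of the list past the threshold, beside 0.338% of all probe sets. Control 3 had the lowest value of the list, 7.66, where the other controls read 9.05 and 9.14. The mean of the follicular list thus read higher in the knockout lobes, though thyroglobulin did not. Foxa1, Foxo4 and Foxp2 read lower there, and the part of follicular cells in the forkhead values was not tested.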

How the data were processed

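Expression was measured on 6 arrays, 3 Foxe1flox/flox/Cre and 3 Cre controls, grouped by sample title and genotype. The submitters' processing notes name Expression Console and RMA as the source of the deposited log2 values. Version, settings, annotation and genome build: not given in the sources used here. RMA equalises the arrays, so a change shared by most transcripts would not show, and it compresses differences near background. No detection calls or scan dates were used. P-values measure the spread between these mice.

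Of 22206 probe sets 19572 carried 1 symbol in the platform annotation, 2634 are unnamed here and 0 carried several. Symbols were updated by gene identifier to RefSeq (GRCm38.p6), which matched all 19572. A gene with several probe sets enters by the brightest.

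All probe sets were fitted with limma 3.58.1 in R 4.3.3 (lmFit, eBayes, two-sided), without filtering, with Benjamini-Hochberg adjustment over all of them and a threshold of 0.05; the step was tested on simulated data. Intervals are limma's 95% intervals, unadjusted. Promoter windows come from RefSeq. Figures used matplotlib 3.10.9 in Python 3.11.15.

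The family, the gene lists and the tests were chosen with earlier results of these data known, so lists and members are described by counts and medians, with no test of a list. Genes were named by rule: members with an unadjusted p under 0.05, separated groups at least 0.5 apart, the 3 largest differences each way, and a preset list; of other lists, called genes or the 3 with the smallest p. The part of the rule that ranks members by likeness of the forkhead domain to Foxe1 was not applied, since no protein sequences were used here. All other members were described by value as well. Alternatives were median centring, quantile normalization run again, array weights, a variance trend (also with robust fitting), filters at the lower quartile and at the median, the plain t statistic, replicate number as block, sex read from Y-linked genes, averaging a gene's probe sets, and leaving out each array. Using only the 4 arrays with Y-linked signal was added after seeing the data. Values with the same replicate number in both groups did not deviate together (correlations of -0.01, 0.08 and 0.02), so the numbers were not taken as pairs.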

Additional observations from a re-analysis of the deposited data

How the results depend on the processing

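No forkhead gene reached an adjusted p under 0.05 in any of the 18 other settings. Of 299 values of the 17 named members 296 kept their direction and their side of the threshold, and 3 changed sign, all of Foxk2, which was -0.03 after renewed quantile normalization and -0.03 to 0.09 when each array was left out. The fall of Foxe1 was called in each setting that gave it a value but the ordinary t statistic (-4.19, adjusted p = 0.223), and its probe set did not pass the filter at the median. The median difference of the family was 0.04 after median centring (all probe sets 0.02), -0.05 among the 26 members above the lower quartile, -0.07 on the 4 arrays with Y-linked signal and -0.06 to -0.02 when each array was left out. Members at an unadjusted p under 0.05 numbered 4 after median centring (12.8% of all probe sets), 4 of the 17 that passed the filter at the median (17.9% of the probe sets that passed), 4 of the 26 that passed the filter at the lower quartile (14.8%), and 3 to 7 when each array was left out (9.88% to 12.7%). Members without overlap numbered 18 on the 4 arrays with Y-linked signal, where 40.6% of all probe sets were separated, and 12 to 16 when each array was left out, where 27.3% to 29.3% of all probe sets were. With the replicate number as a block the members at an unadjusted p under 0.05 numbered 5, 63 probe sets were called against 75, and no call on a member changed. Probe sets called numbered 118 with a variance trend and robust fitting, 0 with the ordinary t statistic, 6 on the 4 arrays with Y-linked signal and 2 to 43 when each array was left out. Some settings had fewer arrays or probe sets, and the causes of these shifts were not tested.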

Other observations

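The Foxred genes share letters with the family but encode oxidoreductases and were left out of it. Foxred2, a flavoprotein of the endoplasmic reticulum, read 3.75, 3.56 and 4.05 in control lobes and 4.58, 4.52 and 4.62 in knockout lobes. The knockouts lay above the controls by at least 0.47 (difference 0.79, SE 0.19, limma adjusted p = 0.14). Foxred1 read 6.48 to 6.93 and 6.27 to 6.55, with overlap (difference -0.29).

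Marker lists of further cell types stood as follows, as mean log2 values. Parathyroid genes, 3 of 4 measured, ran from 13.24 to 16.93 in control lobes and from 5.95 to 14.77 in knockout lobes. Adipocyte genes, all 7 measured, lay at 11.10 to 12.43 and 10.65 to 11.37 with 7 negative differences. Macrophage genes had 6 of 7 negative differences (7.75 to 8.27 and 7.30 to 7.78). B cell genes, 4 of 5 measured, and nerve genes, 4 of 7 measured, had 2 and 1 positive differences, and among the nerve genes S100b differed by 1.02 (adjusted p = 0.0956).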
